A study of Mus musculus with 13 samples.

Results

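The circadian clock genes described here are the core oscillator and its nearest output in mouse adipocytes, and 10 genes were named by symbol: Arntl, Clock, Per1, Per2, Per3, Cry1, Cry2, Nr1d1, Nr1d2 and Dbp. A row was found for 8 of these 10 among 11761 gene rows. All 8 passed the filter on low values, an average of 1 CPM or more. CPM is the read count of a gene scaled to the effective size of its library. Cry2 and Dbp were not analysed here. The genes were chosen by name.

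RNA bound to tagged ribosomes was recovered by antibody pulldown (translating ribosome affinity purification, TRAP) from epididymal white fat of Adipoq-NuTRAP mice on the C57BL/6J background, in which the adipocyte gene Adipoq drives the tag. One group was fed chow with 6.4% fat by weight and the other a high-fat diet (HFD), each for 10 weeks, with 3 libraries per diet. Both carried the same transgenes. The mice lived under 12 h of light and 12 h of dark. The labels used here give neither the hour of collection, nor the age or sex of the mice, nor the composition of the HFD, and they do not say whether the libraries came from separate animals. The p-values therefore reflect only how far these libraries differ from each other, whatever the source of that spread. A difference in clock gene level between diets and a difference in hour of collection cannot be told apart in this design. Nor can fewer cells of a type be told apart from less RNA per cell.

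The clock is a transcriptional feedback loop that runs with a period of about a day in nearly every cell, fat cells included. BMAL1 (the product of Arntl) and CLOCK bind E-box sequences and switch on the Per and Cry genes, whose proteins then block them. In a second loop, the nuclear receptors REV-ERB alpha and beta (Nr1d1 and Nr1d2) repress Arntl and other genes at ROR elements, where the ROR receptors activate. D-box factors such as DBP, TEF and HLF and their antagonist NFIL3 form a further arm.

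The oscillator's genes moved in both directions under HFD. Arntl, Clock and Cry1 were higher, whereas Per3, Nr1d1 and Nr1d2 were lower. Per1 and Per2 did not pass the test. Of the 8 clock genes tested, 6 changed, 3 in each direction, by limma with Benjamini-Hochberg adjustment at 0.05. Over all 11643 genes tested, 35.1% changed, 19.1% higher and 16.0% lower. The diets' libraries did not overlap for the same 6 clock genes, against 50.2% of all genes (25.2% with HFD higher and 25.0% with HFD lower). The median log2 fold change, HFD minus chow on the log2(CPM + 1) scale, was -0.19 for the clock genes and -0.004 for all genes. Without chow replicate 3, which had the fewest reads, the counts were again 3 higher and 3 lower. Libraries were also scaled so that the median gene of an adipocyte identity list was level between them, called identity-gene scaling here. Before this scaling 14 of the 32 genes tested from that list were lower with HFD and 3 higher. Their median log2 fold change was -0.42. Under identity-gene scaling the clock gene counts were 3 higher and 2 lower. Of all 11659 genes tested under it, 4468 were higher and 460 lower, and the median of all genes moved to 0.41.

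**Figure D1:**
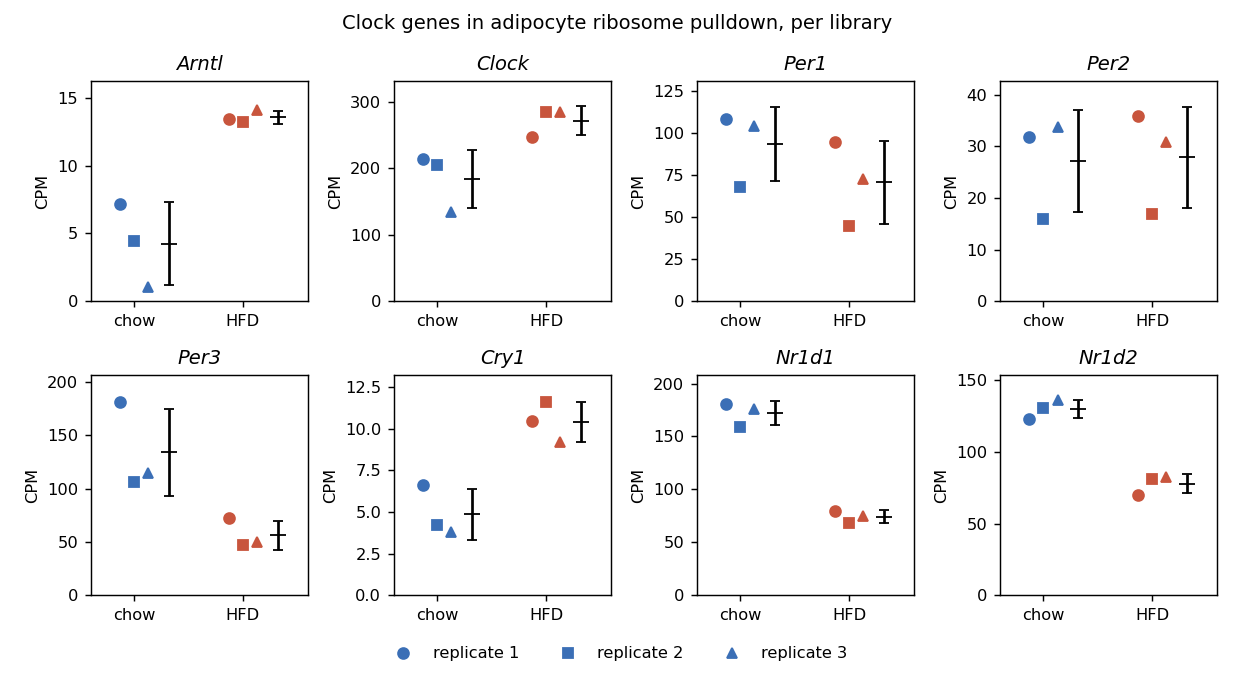
CPM of each clock gene (y axis, starting at 0) in the 3 chow libraries (blue) and 3 HFD libraries (red), with the mean ± SD in black and the symbol giving the replicate number. Chow and HFD libraries are separate for Arntl, Clock, Per3, Cry1, Nr1d1 and Nr1d2 and overlap for Per1 and Per2.

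The effective library size, recovered from the CPM of 1 read, was 7430000 reads in chow replicate 3 and 23200000 to 39400000 in the other 5 libraries. It includes any scaling factor the authors applied and can differ from the number of reads counted. Adipocyte markers were abundant in both diets: the sum of 8 of them (Adipoq, Plin1, Cidec, Fabp4, Lep, Cfd, Lipe and Pnpla2) was 16663 to 26540 CPM on chow and 14894 to 16863 CPM on HFD. Of these 8, 5 were lower and 1, Lep, was higher (log2 fold change 2.17, limma adjusted p 6.86e-05), with a median log2 fold change of -0.58. Markers of other cells were far lower in sum, and higher with HFD. The macrophage sum was 64.5 to 87.4 CPM on chow and 219 to 340 CPM on HFD, with 7 of 8 markers higher and 1, Cd14, lower. The endothelial sum was 23.1 to 60.7 CPM on chow and 117 to 220 CPM on HFD (6 of 7 higher). The smooth muscle and pericyte sum was 77.6 to 94.2 CPM on chow and 485 to 876 CPM on HFD (5 of 5 tested higher). Fibroblast markers summed to 452 to 538 CPM on chow and 744 to 1198 CPM on HFD, with 3 of 6 higher and 1 lower, and mesothelial markers to 16.5 to 26.1 and 33.7 to 109 CPM (2 of 4 higher). No marker found for these cell types stood at the lowest value of the table in any library. The part of these cells in the clock gene differences was not tested.

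The activators were higher in HFD. Arntl, which encodes BMAL1, the partner without which the oscillator stops, stood at 7.16, 4.47 and 1.09 CPM in chow replicates 1, 2 and 3 and at 13.4, 13.2 and 14.1 CPM in the HFD replicates. Each HFD library was above each chow library, and the chow libraries were widely spread while the HFD libraries lay close together. The mean rose from 4.24 ± 3.04 to 13.6 ± 0.501 CPM (SD, n = 3 each), a ratio of means of 3.20. With limma the log2 difference was 1.68 (SE 0.42, adjusted p 0.0129).

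The lowest Arntl value rested on 8 reads, for which an exact Poisson 95% interval, covering counting error only, runs from 0.465 to 2.12 CPM. Such an interval takes each read as independent and is too narrow where reads are not: among values under 20 reads, even numbers made up 51.4% to 67.9% in each library. The intervals of the other chow libraries, 6.11 to 8.33 CPM for replicate 1 (166 reads) and 3.77 to 5.26 CPM for replicate 2 (145 reads), do not reach it. Without chow replicate 3 the log2 fold change was 1.12 (limma adjusted p 0.00715).

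Arntl lies on chromosome 7 at 113178471 to 113314126 of GRCm38.p6. RefSeq gave 2 start windows for it, each from 250 bases before to 50 after a start. The second held a ROR element, the sequence through which REV-ERB and ROR receptors act, beginning 26 bases after the start. Such an element, on either strand, was present in 0.384% of the 32851 RefSeq promoter windows of the same length. The 30 bases around it, at chr7:113207529-113207558 on the plus strand, are shown because Arntl had the largest rise of the 8 clock genes tested. The element is in capitals.
Arntl: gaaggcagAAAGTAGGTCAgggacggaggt

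Clock, on chromosome 5 at 76209868 to 76305603, whose product pairs with BMAL1, measured 214, 205 and 134 CPM in the chow libraries and 247, 284 and 284 CPM in the HFD libraries. The diets did not overlap, with chow replicate 3 the lowest of the 6. The mean was 184 ± 43.6 CPM on chow and 272 ± 21.2 CPM on HFD (SD, n = 3), a ratio of 1.47. The log2 difference was 0.58 (SE 0.18, limma adjusted p 0.0323). This call did not hold without HFD replicate 1, 2 or 3 (limma adjusted p 0.0526, 0.0956 and 0.0991), nor without the mean-variance trend (0.0569). Without chow replicate 3 the value was 0.37 (adjusted p 0.0363).

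Among the repressor genes, 1 fell, 1 rose and 2 did not pass. Per3, the member of the Per family that is least needed for the rhythm itself, measured 181, 106 and 115 CPM in the chow libraries and 72.0, 46.9 and 49.9 CPM in the HFD libraries. Every HFD library was below every chow library. Per3 lies on chromosome 4 at 150997018 to 151044707. The mean fell from 134 ± 40.8 to 56.2 ± 13.7 CPM (SD, n = 3), with a log2 fold change of -1.22 (SE 0.23, limma adjusted p 0.00313).

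Per1 and Per2, the period genes that respond acutely to hormones and light-driven signals, overlapped between diets. They lie on chromosome 11 at 69095108 to 69109965 and chromosome 1 at 91415977 to 91459351. Per1 measured 108, 68.1 and 104 CPM in the chow libraries and 94.4, 44.9 and 72.5 CPM in the HFD libraries. Its log2 difference was -0.43 (SE 0.27, limma adjusted p 0.238). Per2 measured 31.8, 15.9 and 33.8 CPM in the chow libraries and 35.8, 16.9 and 30.9 CPM in the HFD libraries. The log2 fold change of Per2 was 0.04 (SE 0.33, limma adjusted p 0.934). For both genes replicate 2 was the lowest library of each diet, and for Per2 the highest library was 2.13 times the lowest in chow and 2.11 times in HFD.

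Cry1, the cryptochrome gene that acts late in the cycle as a strong repressor of CLOCK and BMAL1, went the opposite way to Per3. It measured 6.63, 4.20 and 3.78 CPM in the chow libraries and 10.5, 11.6 and 9.19 CPM in the HFD libraries. All HFD libraries were above all chow libraries. Cry1 lies on chromosome 10 at 85131700 to 85185054. The mean rose from 4.87 ± 1.54 to 10.4 ± 1.22 CPM (SD, n = 3), a ratio of 2.14, with a log2 fold change of 0.99 (SE 0.23, limma adjusted p 0.00944). Behind the chow values were 154, 136 and 28 reads.

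The promoters of these 2 repressor genes, which moved in opposite directions, are shown side by side: the 250 bases before the RefSeq start, on the minus strand, at chr4:151044666-151044915 for Per3 and chr10:85185055-85185304 for Cry1. Capitals mark matches to an E-box (CACGTG), its variant E-prime box (CACGTT, read here from the other strand as AACGTG) or a D-box (TTATGTAA or TTACGTAA), all searched on both strands.
Per3: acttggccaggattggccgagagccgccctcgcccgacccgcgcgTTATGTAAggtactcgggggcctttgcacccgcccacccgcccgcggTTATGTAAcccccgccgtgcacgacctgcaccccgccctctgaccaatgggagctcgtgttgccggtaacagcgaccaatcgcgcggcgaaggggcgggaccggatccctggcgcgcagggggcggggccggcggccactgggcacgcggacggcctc
Cry1: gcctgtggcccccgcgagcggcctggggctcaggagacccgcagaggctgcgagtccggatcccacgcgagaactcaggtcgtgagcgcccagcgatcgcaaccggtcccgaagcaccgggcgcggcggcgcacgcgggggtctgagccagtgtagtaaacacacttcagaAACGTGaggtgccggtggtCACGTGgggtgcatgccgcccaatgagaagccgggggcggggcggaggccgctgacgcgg
The Per3 window held 2 D-boxes, beginning 205 and 158 bases before the start, and no E-box. The Cry1 window held an E-box 60 bases and an E-prime box 79 bases before the start, and no D-box. Of all 32851 windows of 300 bases, 1.06% held a D-box, 7.15% an E-box and 4.68% an E-prime box. A match describes the letters only, and a window without one says nothing of the factor. Windows were found for 9 of the 10 named genes, Per2 being the exception. Among these 9, an E-box was present for 2 (Per1 and Cry1), an E-prime box for 3 (Cry1, Cry2 and Nr1d1), a D-box for 1 (Per3) and a ROR element for 1 (Arntl). The cAMP response element TGACGTCA, present in 1.79% of all windows, was found for none of the 9. Outside the named genes, both Tef windows held an E-box.

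Both REV-ERB genes were lower in HFD, with little spread within a diet. Nr1d1, which encodes REV-ERB alpha, a heme-sensing repressor and a known player in fat cell metabolism, measured 181, 159 and 176 CPM in the chow libraries and 79.9, 68.1 and 74.5 CPM in the HFD libraries. The diets were far apart, the highest HFD library lying well below the lowest chow library. The mean fell from 172 ± 11.7 to 74.2 ± 5.89 CPM (SD, n = 3), with chow 2.32 times HFD. The log2 difference was -1.20 (SE 0.12, limma adjusted p 0.000123).

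Nr1d1 shares part of its span with a neighbour. On GRCm38.p6 it lies on chromosome 11 at 98767932 to 98775377 and overlaps the span of Thra, the thyroid hormone receptor alpha gene, by 1075 bases (98767932 to 98769006). Per the labels, double-stranded cDNA was tagmented with Nextera XT, which does not mark strand, so reads from the shared stretch cannot be assigned to either gene, and whether exons overlap was not examined. Thra measured 145, 152 and 162 CPM in the chow libraries and 71.5, 62.2 and 58.5 CPM in the HFD libraries, a log2 fold change of -1.25 (SE 0.13, limma adjusted p 0.000117). Within each library the Nr1d1 and Thra values were close: Nr1d1 exceeded Thra by 0.06 to 0.34 on the log2(CPM + 1) scale. The share of overlapping reads in the Nr1d1 fall was not tested. Among the other clock genes analysed, Per3 overlaps the span of the urotensin gene Uts2 by 4714 bases, and Arntl, Clock and Per2 overlap noncoding genes or a pseudogene.

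The 250 bases before the Nr1d1 start, at chr11:98775378-98775627 on the minus strand, held an E-prime box 28 bases before the start (capitals, read from the other strand) and no E-box, D-box or ROR element. They are shown because Nr1d1 had the smallest adjusted p of the clock genes.
Nr1d1: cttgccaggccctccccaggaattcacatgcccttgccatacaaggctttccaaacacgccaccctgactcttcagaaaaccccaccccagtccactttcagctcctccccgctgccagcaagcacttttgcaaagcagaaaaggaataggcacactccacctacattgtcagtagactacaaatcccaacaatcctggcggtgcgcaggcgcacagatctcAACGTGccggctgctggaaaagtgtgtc

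Nr1d2, which encodes REV-ERB beta and does not overlap another gene in that annotation, measured 123, 131 and 136 CPM in the chow libraries and 70.0, 81.0 and 82.7 CPM in the HFD libraries. Again no HFD library reached the chow range. The gene lies on chromosome 14 at 18204056 to 18239106. The mean fell from 130 ± 6.76 to 77.9 ± 6.88 CPM (SD, n = 3), with chow 1.67 times HFD and a log2 fold change of -0.73 (SE 0.12, limma adjusted p 0.00178). Identity-gene scaling ended this call (-0.29, limma adjusted p 0.173), while under it Nr1d1 (-0.76, adjusted p 0.00336) and Per3 (-0.79, adjusted p 0.0236) passed.

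**Figure D2:**
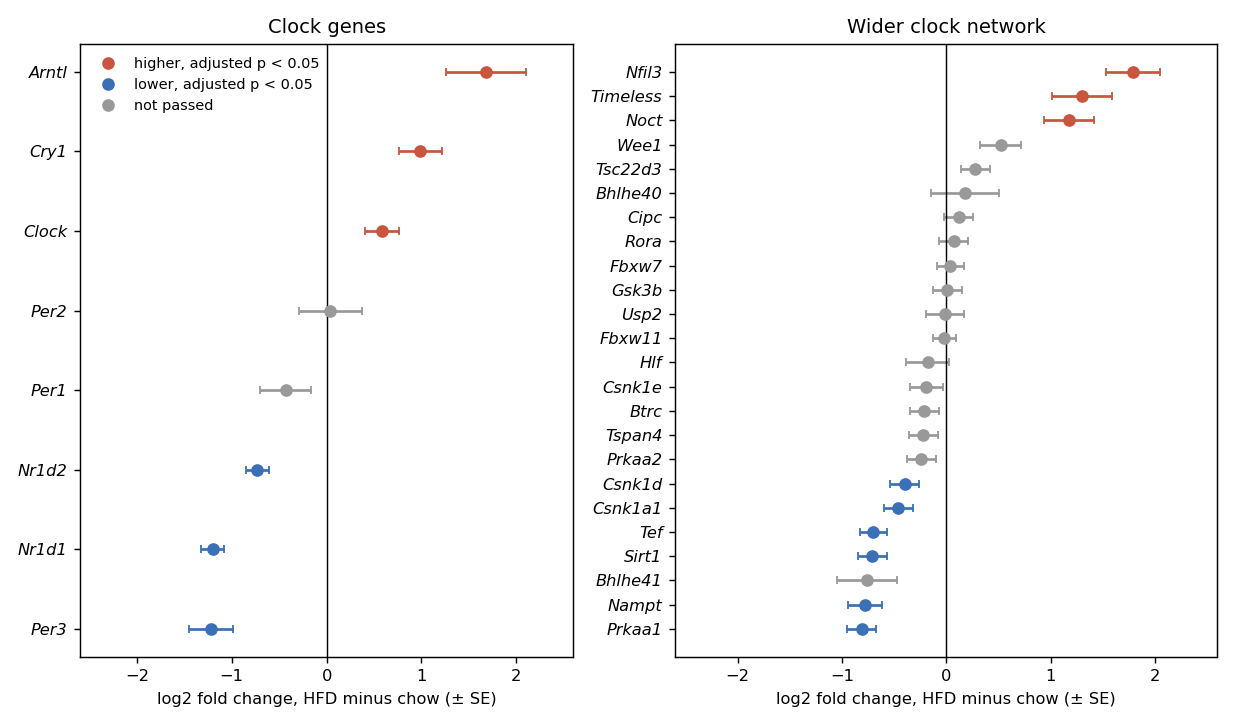
Log2 fold change of HFD minus chow on the log2(CPM + 1) scale (x axis, bars are SE) for the 8 clock genes (left) and 24 genes of the wider clock network (right). Red and blue mark genes higher and lower at a limma adjusted p under 0.05, and grey marks those that did not pass. Among the genes plotted, Arntl (1.68) and Nfil3 (1.79) lie at the top, and Per3 (-1.22) and Prkaa1 (-0.81) at the bottom. Some network genes that passed are not plotted.

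A wider list of 31 genes around the oscillator had 26 members in the table, all of them tested. It covered ROR receptors, D-box factors, E-box repressors, the kinases and ubiquitin ligases that set PER and CRY stability, and genes with a daily rhythm in most tissues. Of the 26, 3 rose and 8 fell, against 19.1% higher and 16.0% lower over all genes. The balance depended on scaling, for all genes as for these. With identity-gene scaling 8 were higher and 1 lower, against 4468 higher and 460 lower of all 11659 genes tested. In the main fit the median log2 fold change of the 26 was -0.19. Npas2, Arntl2, Rorb, Ciart and Fbxl21 were not analysed here. Without chow replicate 3 the counts were 4 higher and 7 lower.

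Among the D-box factors, the activator and the antagonist moved apart. Nfil3, which encodes the D-box repressor NFIL3 (E4BP4), rose from 2.89, 3.20 and 2.69 CPM on chow to 13.4, 8.34 and 17.5 CPM on HFD (log2 fold change 1.79, SE 0.26, limma adjusted p 0.00094). Tef, an activator at the same boxes, fell from 247, 267 and 251 CPM to 172, 162 and 137 CPM (-0.70, SE 0.13, limma adjusted p 0.00277). The diets did not overlap for either gene. Hlf, a close relative of Tef named after its values were seen, ranged from 5.78 to 8.88 CPM under chow and from 5.58 to 6.63 CPM under HFD and did not pass (-0.18, limma adjusted p 0.526).

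Rora, which encodes the receptor ROR alpha, an activator at ROR elements, and was named after its values were seen, ranged from 155 to 185 CPM under chow and from 158 to 204 CPM under HFD and did not pass (0.07, limma adjusted p 0.736), though it did under identity-gene scaling (0.51, 0.0474).

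Of the genes for kinases that act on PER or CRY proteins, Prkaa1, Csnk1a1 and Csnk1d fell. Csnk1e, Prkaa2 and Gsk3b, named after their values were seen, did not pass (log2 fold changes of -0.19, -0.24 and 0.01; limma adjusted p 0.37, 0.199 and 0.952). Prkaa1, a catalytic subunit of the energy sensor AMPK that marks CRY1, fell from 151 ± 18.4 to 85.8 ± 9.81 CPM (SD, n = 3; log2 fold change -0.81, limma adjusted p 0.00225). The casein kinase genes Csnk1a1 (-0.46, limma adjusted p 0.0293) and Csnk1d (-0.40, 0.0479) passed too. Leaving out any one of the HFD libraries ended both calls (adjusted p 0.0787 to 0.0818 for Csnk1a1 and 0.0847 to 0.147 for Csnk1d). Csnk1a1 was also lost without the mean-variance trend (limma adjusted p 0.0511). Over 16 alternative settings the Csnk1d call held in 4, was lost in 11 and changed sign in 1. Those losses included leaving out chow replicate 1 (limma adjusted p 0.0647) or 3 (0.0804), equal totals (0.084) and quantile normalization (0.0618). The value of Csnk1d was 0.04 under identity-gene scaling.

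Genes that tie the clock to NAD, Nampt and Sirt1, were lower as well. Nampt, which makes the rate-limiting enzyme of NAD salvage, fell from 198, 284 and 204 CPM to 119, 137 and 139 CPM (log2 fold change -0.78, limma adjusted p 0.00534). Sirt1, an NAD-dependent deacetylase gene, fell from 32.2, 30.5 and 28.8 CPM to 17.6, 17.6 and 19.7 CPM (-0.71, limma adjusted p 0.0042). Under identity-gene scaling the calls of Nampt, Sirt1, Tef, Prkaa1 and Csnk1a1 were lost (values from -0.37 to -0.02).

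The other risen network genes were Noct and Timeless. Noct, encoding nocturnin, a rhythmic NADP(H) phosphatase, rose from 27.9 ± 10.1 to 62.2 ± 8.60 CPM (SD, n = 3; log2 fold change 1.18, limma adjusted p 0.00495). Timeless, a DNA replication fork gene also linked to the clock, rose from 2.57 ± 1.34 to 7.51 ± 1.39 CPM (1.30, limma adjusted p 0.00792). Wee1, a cell-cycle kinase gene under clock control, ranged from 5.82 to 7.41 CPM under chow and from 8.0 to 10.9 CPM under HFD, without overlap, but did not pass (0.52, limma adjusted p 0.0674), though it did under identity-gene scaling (0.91, 0.0138) and without the mean-variance trend (0.52, 0.0419).

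Differences between clock genes that moved in opposite directions could be read within each library, where scaling between libraries cancels apart from the pseudocount. Arntl minus Nr1d1 was -4.48, -4.87 and -6.41 in chow and -2.49, -2.29 and -2.32 in HFD on the log2(CPM + 1) scale. The gap was narrower in every HFD library than in every chow library. A further 2 differences given here were added after the values were seen. So were Nr1d1 minus Thra, given above, and Per1 minus Per2, not reported here. Cry1 minus Nr1d1 was -4.58, -4.94 and -5.21 in chow and -2.82, -2.45 and -2.89 in HFD. Nfil3 minus Tef was -6.00, -5.99 and -6.09 in chow and -3.59, -4.13 and -2.90 in HFD. These differences compare genes of unequal length, so their size has no meaning in itself, only their change between libraries. They combine genes whose responses are given above and were not tested again. In each pair whose values are listed here, the diets did not overlap for either gene and the genes moved in opposite directions. The separation of the diets in these differences therefore had to follow and adds no support.

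**Figure D3:**
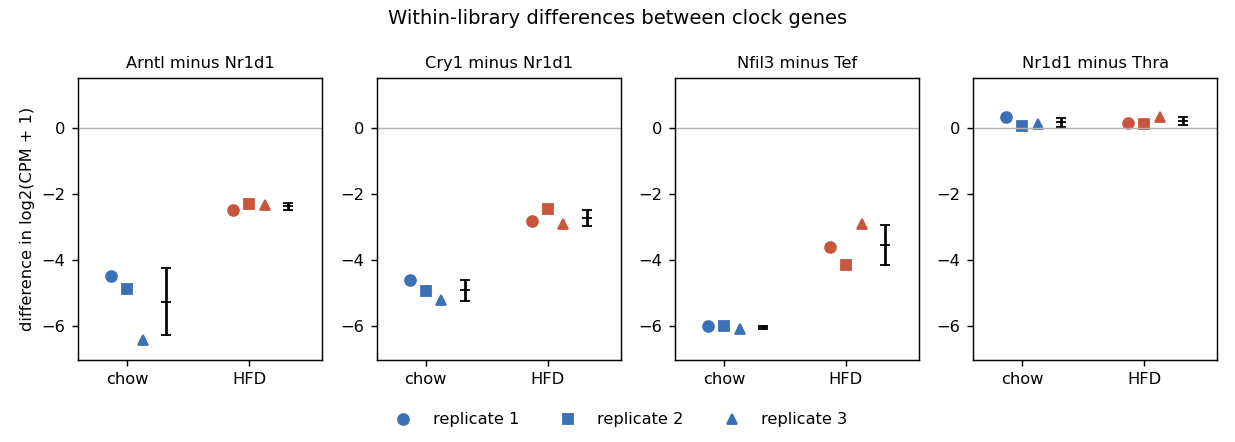
Difference in log2(CPM + 1) between 2 genes of the same library (y axis) for each chow (blue) and HFD (red) library, with the mean ± SD in black and the symbol giving the replicate number. The first 3 differences are less negative in every HFD library, as the opposite moves of their genes require, while Nr1d1 minus Thra stays between 0.06 and 0.34.

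Several clock genes were lowest in the same library. Per1, Per2, Per3 and Nr1d1 each had their lowest chow value and their lowest HFD value in replicate 2. Relative to the diet mean of log2(CPM + 1), replicate 2 stood at -0.42 in chow and -0.58 in HFD for Per1, and at -0.67 and -0.62 for Per2. The deviations were smaller for Per3 (-0.29 and -0.23) and for Nr1d1 (-0.11 and -0.12). Arntl, Clock and Cry1 had their lowest chow value in replicate 3, the library with the fewest reads, at -1.12, -0.42 and -0.26. Hour of collection is among the quantities that the labels used here do not give per library, and its part in this spread was not tested.

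**Figure D4:**
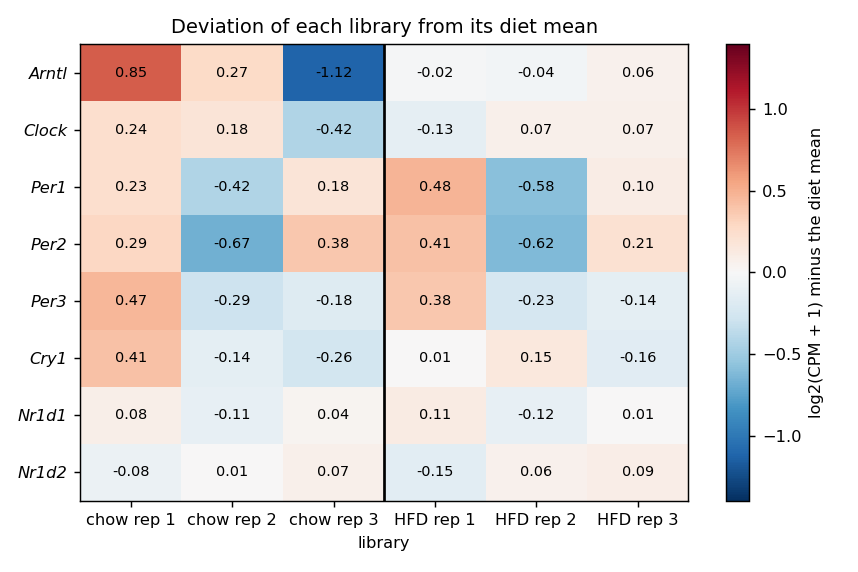
Deviation of each library (columns) from the mean of its diet for each clock gene (rows), in log2(CPM + 1), red above and blue below the mean. Replicate 2 is below the mean in both diets for Per1, Per2, Per3 and Nr1d1, and the largest deviation is that of Arntl in chow replicate 3 (-1.12).

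Of the candidate genes, those whose profile over the 6 libraries was most like that of Arntl were Flrt2, Dennd4a and Peg3. Likeness was the root mean square difference between centred log2(CPM + 1) values, over 8624 candidate genes averaging 10 CPM or more. The clock genes and symbols of the Gm, Rik, AK and BC kinds were left out of the candidates. The difference was 0.25 for Flrt2, which encodes a membrane adhesion protein, and it shared the low chow replicate 3 (9.85, 5.24 and 0.818 CPM on chow; 11.6, 15.7 and 18.6 CPM on HFD). It was 0.30 for Dennd4a, a Rab exchange factor gene (59.3, 58.1 and 27.3 CPM on chow and 186, 170 and 193 CPM on HFD). For the imprinted gene Peg3 it was 0.32 (104, 64.0 and 46.2 CPM on chow and 182, 224 and 251 CPM on HFD). In chow replicate 3, 1 read equalled 0.135 CPM, so the Flrt2 value of 0.818 CPM there, like that of Arntl, rests on few reads.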

How the data were processed

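The deposited table holds log2 CPM per gene, made by the authors and rounded to 2 decimals, 1 column per library. The log2 scale was inferred from the numbers, which fall below 0 and whose anti-logs sum to between 984422 and 1182123 CPM per library. HISAT2, featureCounts, Picard and edgeR and the build mm10 are listed in the submitters' processing notes; their roles and versions, the prior count and the filter on low genes are not given in those sources. Columns were matched to samples by diet and replicate number, with 0 left over; the 7 chromatin samples were not analysed here.

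CPM were regained by raising 2 to the deposited values. The 11643 genes averaging 1 CPM or more were analysed as log2(CPM + 1) by a two-sided moderated test (limma 3.58.1, trended eBayes; R 4.3.3). P-values were adjusted by Benjamini-Hochberg over all of them and read at 0.05. Fold changes on this scale understate the change of low genes. The fit was tested on simulated data. Reads per library were recovered from steps between low values (under 20 reads, whole within 0.1 of a read in 100% of cases), so that 3 reads equalled 0.404 CPM in the shallowest library, chow replicate 3, against 0.0762 to 0.129 CPM elsewhere. The genes, the lists and the tests were chosen with earlier results of these data known. Genes named are every clock gene, most network genes that passed, Thra, and the 3 candidates with the closest profiles to Arntl. The same search for Dbp was not run. Some genes of the lists, among them network genes that passed, are counted but not reported by name here. Hlf, Rora, Wee1, Csnk1e, Prkaa2 and Gsk3b were added after their values were seen. Alternatives changed the pseudocount, filter, scaling, weights, trend and block, and left out each library. Positions and promoter windows are from RefSeq on GRCm38.p6.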

Additional observations from a re-analysis of the deposited data

How the results depend on the processing

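Across 16 alternative settings, 117 of 128 values of the 8 clock genes kept their direction and their side of the threshold, 5 lost a call (Clock 4 times and Nr1d2 once), 1 gained one and 5 changed sign. The sign changes were of genes that did not pass: Per1 (0.01 with identity-gene scaling) and Per2 (-0.00 with quantile normalization, and from -0.29 without chow replicate 2 to 0.35 without HFD replicate 2 over the libraries left out in turn, below 0 also without HFD replicate 1, -0.17, or 3, -0.06). Identity-gene scaling also gave 8 higher and 1 lower network genes, against 4468 higher and 460 lower of all 11659 genes tested. Under it signs changed for Csnk1d (0.04) and Hlf (0.20). Rora and Wee1 passed under it (0.51, limma adjusted p 0.0474, and 0.91, 0.0138), and Wee1 also without the trend (0.52, 0.0419). With 1 library left out in turn, Rora ranged from -0.03 (without HFD replicate 3) to 0.16 (without HFD replicate 1). The call of Flrt2 (1.69, limma adjusted p 0.0362) was lost without any one HFD library (0.0624 to 0.103), with the deposited log2 values (0.0557) and without the trend (0.0554). Rescaling to equal totals moved the median of all genes to 0.10. Same-numbered libraries of the 2 diets deviated together with correlations of 0.43, 0.23 and 0.09 across genes, which are not independent replicates. Since 1 of these is not above 0.1, the numbers were not taken as pairs. With the replicate number as a block the clock genes counted 3 higher and 4 lower, Per1 passing (-0.43, limma adjusted p 0.0249), and 4839 genes changed in all against 4084. Chow replicate 3 correlated best with HFD replicate 2 (0.15), not with its own number. All other combinations of unlike numbers were negative, from -0.39 to -0.04. Levels of Arntl and Cry1 in chow replicate 3 rest on 8 and 28 reads, which limits their precision.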
